A study of Mus musculus with 8 samples.

Results

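The genes compared are those of 6 microtubule-associated proteins, Map4, Map2, Mapt (tau), Map1a, Map1b and Map7, in the cerebral cortex of mouse embryos with and without Ptbp2. Probe sets were taken where the platform annotation named exactly 1 of these genes, by its current symbol or by an older one such as Mtap4. This gave 171 probe sets out of 625534 on the array. They comprised 35 for Map4, 36 for Map2, 22 for Mapt, 25 for Map1a, 22 for Map1b and 31 for Map7. The groups were 4 Ptbp2 KO embryos and 4 wild type embryos at embryonic day 18.5, all on a mixed CD1 and C57BL/6 background, with 1 Affymetrix exon array per embryo. The deleted part of Ptbp2 and the cells in which it was deleted were not stated in the labels. These genes were chosen on differences between the same knockout and wild type arrays already known. Differences of the 6 genes are therefore given as a description, without p-values, and the calls named below support nothing further.

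Microtubule-associated proteins bind the microtubule lattice and set how stable, bundled and accessible to motors it is. MAP2 of dendrites, tau of axons and MAP4, which is found in many cell types, share a family of tubulin-binding repeats and are made in several isoforms by alternative splicing. MAP1A and MAP1B form a separate family of large proteins cleaved into heavy and light chains, and MAP7 recruits conventional kinesin to microtubules. PTBP2, the neuronal polypyrimidine tract binding protein, represses alternative exons in developing neurons. An exon array measures parts of a transcript through separate probe sets, so a gene's level and the use of its parts can be compared separately. The data hold no exon position for a probe set, so a difference in use cannot be assigned to an exon.

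Array medians of the deposited log2 signals ran from 6.82 to 6.93, and precision is limited by having 4 arrays a group. The targeted gene Ptbp2 was at 5.95 ± 0.34 in knockout and 11.20 ± 0.14 in wild type cortex (SD, n = 4 each), with a log2 fold change of -5.25 and a limma adjusted p of 1.7e-12. Probe sets with a mean of at least 6.84 over the 8 arrays, the median of all, were retained. Gene values are medians over the retained probe sets of each array, and 12960 genes had at least 4 of them. The mean of 6 markers of cortical projection neurons lay between 10.01 and 10.19 in knockout and between 10.03 and 10.28 in wild type arrays. Signals of different probe sets also reflect their own probes, so the 6 genes were not ranked by level.

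Map4 was the gene of the family with the widest difference between the groups. Its gene value was 10.40, 10.31, 10.10 and 10.39 in knockout 1 to 4, against 11.04, 10.80, 10.76 and 10.77 in wild type 1 to 4. Every knockout array lay below every wild type array, and wild type 1 was the highest of all. The means were 10.30 ± 0.14 in knockout and 10.84 ± 0.13 in wild type cortex (SD, n = 4 each), a log2 fold change of -0.54 (SE 0.10). Over the retained Map4 probe sets the median log2 fold change was -0.40, smaller in size than that of the gene value. Map4 was not among the 15 genes called by limma over all genes (0.116%, Benjamini-Hochberg adjusted p under 0.05). Among all genes, 0.0617% were called lower, and 1.97% had groups without overlap with knockout lower. In 16 alternative fits its log2 fold change lay between -0.57 and -0.30 and the gene was called in 5, none of them among the 8 fits with 1 array left out. It was -0.36 with the signal filter at the 75th percentile and -0.30 when its probe sets were averaged in place of taking the median.

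The other neuronal members of the repeat family showed small differences. Map2, the dendritic protein, was at 11.70, 11.81, 11.68 and 11.87 in knockout 1 to 4, against 11.93, 11.70, 11.88 and 11.80 in wild type 1 to 4. These values overlapped, and the log2 fold change was -0.060 (SE 0.092). Mapt, the tau gene, was at 11.74, 11.54, 11.57 and 11.41 in knockout 1 to 4, against 11.60, 11.82, 11.41 and 11.65 in wild type 1 to 4. Its groups also overlapped, with a log2 fold change of -0.055 (SE 0.11) whose sign turned to 0.012 without wild type 2.

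Of the MAP1 family, Map1a separated the groups and Map1b did not. Map1a, which becomes prominent as neurons mature, was at 8.96, 8.89, 8.67 and 8.91 in knockout 1 to 4, against 9.47, 9.09, 9.06 and 9.02 in wild type 1 to 4. The groups did not overlap, though knockout 1 and wild type 4 lay close together. Its log2 fold change was -0.30 (SE 0.11) and was not called. It was -0.20 without wild type 1, -0.18 when its probe sets were averaged and -0.069 with no signal filter. Map1b, a protein of growing axons, was at 12.30, 12.19, 12.13 and 12.13 in knockout 1 to 4, against 12.16, 12.19, 12.35 and 12.18 in wild type 1 to 4. Its log2 fold change of -0.032 (SE 0.090) turned to 0.011 without wild type 3, to 0.0027 with array weights and to 0.077 with no filter. Map7, the kinesin-recruiting protein, was at 7.61, 7.79, 7.28 and 7.50 in knockout 1 to 4, against 7.74, 7.85, 7.47 and 7.74 in wild type 1 to 4. Those groups overlapped as well, with a log2 fold change of -0.16 (SE 0.12).

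**Figure D1:**
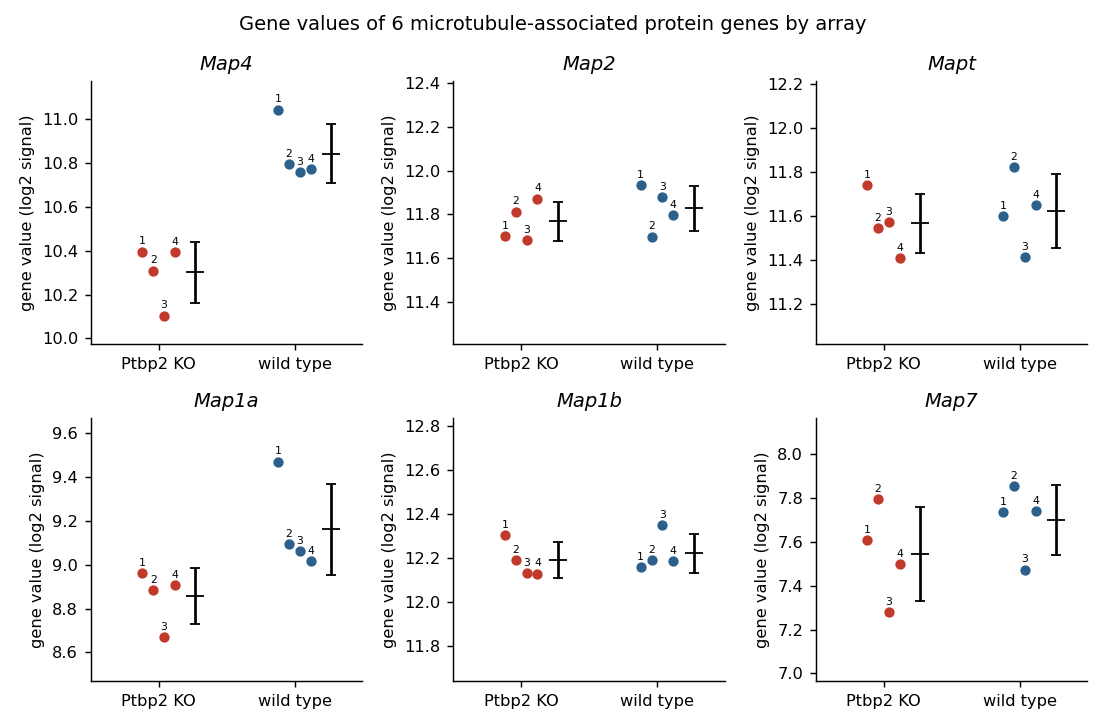
Gene values (median log2 signal of retained probe sets) of the 6 genes on each array, Ptbp2 KO on the left and wild type on the right of each panel; numbers name the replicate, black bars give the mean and SD of 4 arrays, and every panel spans the same range of log2 units. Map4 and Map1a show no overlap between groups, with wild type 1 highest in both, and the other 4 genes overlap.

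The median log2 fold change of the 6 genes was -0.11, against 0.0027 over all 12960 genes, where the 5th and 95th percentiles were -0.22 and 0.19. Ordered by size, the differences ran from Map4 (-0.54) through Map1a (-0.30) and Map7 (-0.16) to Map2 (-0.060), Mapt (-0.055) and Map1b (-0.032). The last 4 lay within 2 SE of 0 and do not differ from their neighbours beyond their errors.

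Retained probe sets numbered 148 of the 171, namely 33 for Map4, all 36 for Map2, 20 for Mapt, 22 for Map1a, 20 for Map1b and 17 for Map7. The 23 left out had means between 3.31 and 6.83 over the 8 arrays, and 14 of them belonged to Map7. Of the 33 Map4 probe sets, 27 were below wild type and 6 above, with log2 fold changes from -0.96 to 0.79. The groups did not overlap for 19 lower and 2 higher Map4 probe sets, where 1.51% of all retained probe sets were lower and 2.73% higher without overlap. Outside Map4, 4 of 115 probe sets had groups without overlap, all lower, 2 in Map2 and 1 each in Map1a and Map7. Map4 also stood out in how unevenly its parts differed. The SD of the log2 fold change over its probe sets was 0.41, against a median of 0.14 over all genes tested, and 30 genes (0.231%) had a larger one. The same SD was 0.21 for Map1a, 0.17 for Map7, 0.11 for Mapt, 0.096 for Map2 and 0.094 for Map1b.

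**Figure D2:**
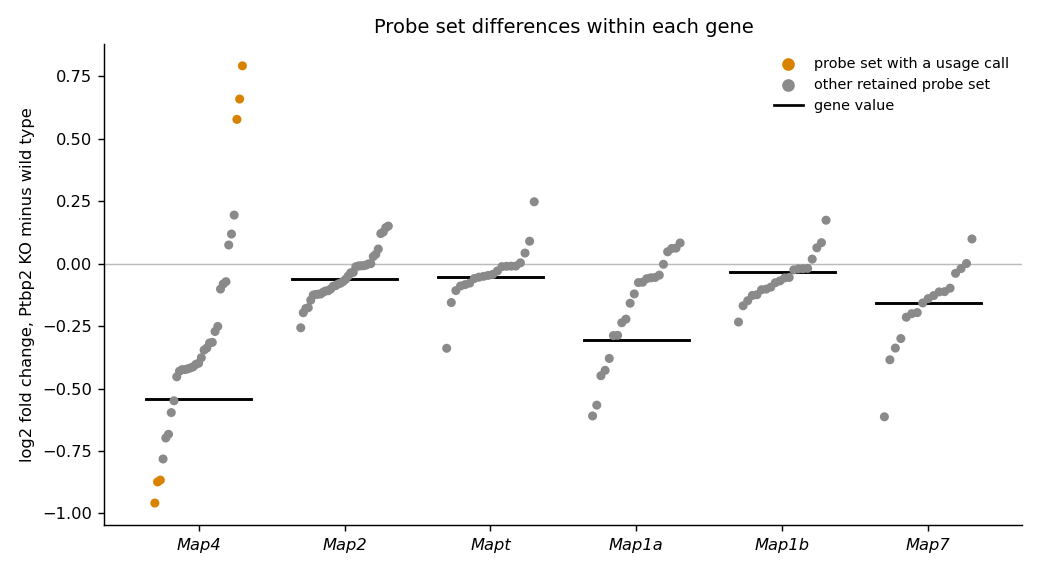
Log2 fold change (Ptbp2 KO minus wild type) of each of the 148 retained probe sets, sorted within its gene; black lines mark the gene value and orange points the probe sets with a usage call. Map4 probe sets range from -0.96 to 0.79, while those of Map2, Mapt and Map1b stay between -0.34 and 0.25.

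Single probe sets of Map4 lay on both sides of wild type. At the level of single probe sets, 4 of the 148 were called by limma, all lower and all in Map4. Of all 312767 retained probe sets 0.0921% were called, and 0.0304% were called lower. The 4 that fell were 4339859, 4762226, 4479836 and 5376406. Probe set 4339859 was at 10.11, 9.98, 9.74 and 10.07 in knockout 1 to 4, against 11.13, 10.85, 11.05 and 10.71 in wild type 1 to 4 (log2 fold change -0.96, SE 0.13). Its lowest wild type array was above its highest knockout array by more than the SD of either group. In probe set 4479836 the knockout arrays were tightly grouped at 9.73, 9.75, 9.67 and 9.67, against 10.83, 10.42, 10.57 and 10.45 in wild type 1 to 4 (log2 fold change -0.87, SE 0.12). The remaining pair had log2 fold changes of -0.87 (4762226, SE 0.14) and -0.78 (5376406, SE 0.11). With 1 array left out, 0 or 1 of these probe set calls remained, and none remained with no signal filter or with the replicate number as a block.

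No Map4 probe set was called higher at this level, where 0.0617% of all were, but 3 lay above wild type by more than 0.3 log2 units. Over all retained probe sets the 95th percentile of the log2 fold change was 0.34. In 5 of the 16 alternative fits 4741985 was called. Probe set 4741985 was at 11.51, 11.56, 11.39 and 11.48 in knockout 1 to 4, against 10.98, 10.80, 10.75 and 10.78 in wild type 1 to 4. All knockout arrays lay above all wild type arrays, the reverse of the gene as a whole (log2 fold change 0.66, SE 0.11). Probe set 4960574 was at 8.63, 8.61, 8.58 and 8.42 in knockout 1 to 4, against 7.94, 7.82, 7.36 and 7.97 in wild type 1 to 4 (log2 fold change 0.79, SE 0.15). It too separated the groups, with wild type 3 lowest. Probe set 5519116 was at 9.83, 9.67, 9.64 and 10.16 in knockout 1 to 4, against 9.69, 8.92, 9.21 and 9.16 in wild type 1 to 4 (log2 fold change 0.58, SE 0.17). Here wild type 1 lay within the knockout range.

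**Figure D3:**
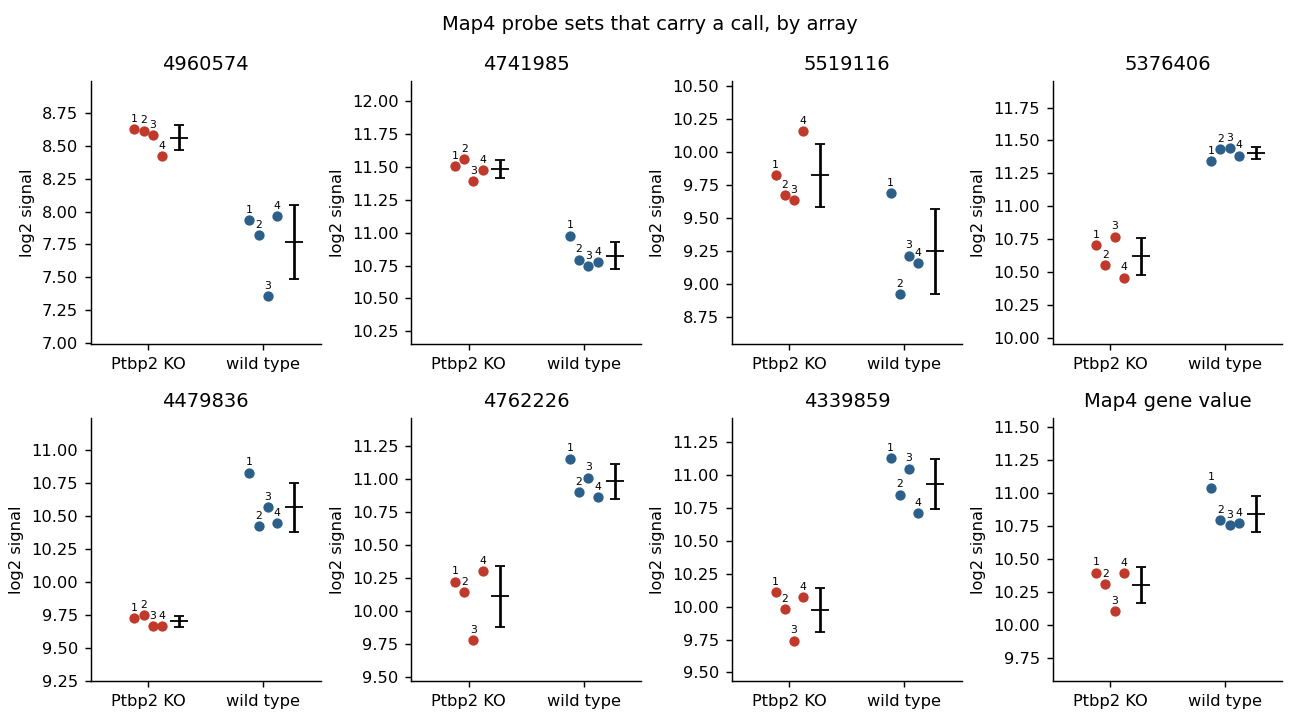
Log2 signal per array of the 7 Map4 probe sets with a call in probe set level or usage, and the Map4 gene value at the lower right; Ptbp2 KO is left of wild type, numbers name the replicate, bars are mean and SD of 4 arrays, and every panel spans the same range. Probe sets 4960574 and 4741985 are higher in all 4 knockout arrays, and 5376406, 4479836, 4762226 and 4339859 are lower in all 4.

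Usage, the difference of a probe set relative to the other probe sets of its gene, was compared with limma diffSplice. Of the retained Map4 probe sets, 6 had a usage call (18.2%), where 0.212% of all 195604 probe sets did, leaving out those of Ptbp2. Raised in relative use were 4960574 (deviation 1.12), 4741985 (0.99) and 5519116 (0.90), where 0.0879% of all probe sets were raised. Lowered were 4339859 (-0.68), 4762226 (-0.59) and 4479836 (-0.59), where 0.124% were lowered. The 3 raised probe sets and 4339859 held their call in all 8 fits with 1 array left out. The call of 4762226 was lost without knockout 3 or wild type 3, and that of 4479836 without knockout 1, wild type 3 or wild type 4. The other 5 genes held no usage call among 115 probe sets.

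The splicing index subtracts the gene value from the probe set on each array and gives each probe set its own variance. By this measure 4741985 was at 1.11, 1.25, 1.29 and 1.08 above the Map4 value in knockout 1 to 4, against -0.066, 0.00, -0.011 and 0.0049 in wild type 1 to 4. It lay above the gene value by a mean of 1.18 ± 0.10 in knockout cortex and was at -0.018 ± 0.033 in wild type cortex (SD, n = 4 each), a difference of 1.20 (SE 0.081). In wild type 2 this probe set was itself the median that gives the gene value, so its 0.00 was fixed. The wild type SD of 0.033 partly reflects this subtraction, and that of its signal was 0.10. Of the 148 probe sets 4741985 was the 1 called by the splicing index, where 0.00869% of all were called. That call ended with the replicate number as a block. Probe set 4960574 was at -1.77, -1.70, -1.52 and -1.97 in knockout 1 to 4, against -3.11, -2.97, -3.40 and -2.81 in wild type 1 to 4. Probe set 5519116 was at -0.57, -0.64, -0.47 and -0.23 in knockout 1 to 4, against -1.35, -1.87, -1.54 and -1.62 in wild type 1 to 4. Neither was called by this model, but for both every knockout array lay above every wild type array. Relative to the gene, 10 Map4 probe sets were higher and 3 lower without overlap, where 1.64% of all probe sets were higher and 1.28% lower. By the same measure 3 of 22 Map1a and 1 of 17 Map7 probe sets were higher without overlap, and none of Map2, Mapt or Map1b. Since the gene value lay lower in knockout arrays, a probe set with an unaltered signal appears raised by this measure. So does a probe set that fell by less than the gene value. Among the 10 higher Map4 probe sets were 4886628 and 4914839, with log2 fold changes of -0.35 and -0.25. Their signals were lower in every knockout array than in every wild type array.

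The other 5 genes had narrower deviations. In Map1a they ran from -0.46 (4496037) to 0.27 (5015349). Map1a probe set 4496037 was at 8.02, 7.65, 7.57 and 8.22 in knockout 1 to 4, against 8.81, 8.29, 8.38 and 8.41 in wild type 1 to 4, without overlap (log2 fold change -0.61, SE 0.17). Relative to the gene value its groups overlapped. The median log2 fold change over Map1a probe sets was -0.098, smaller in size than that of the gene value, and 4 of 22 were above 0.

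In Map7 the deviations ran from -0.47 (5539280) to 0.29 (4500065). Map7 probe set 5539280 was at 7.21, 6.52, 6.37 and 7.61 in knockout 1 to 4, against 7.86, 7.75, 6.80 and 7.74 in wild type 1 to 4. The arrays of each group spread widely here, with wild type 3 and knockout 2 and 3 under the signal filter of 6.84. In Mapt, whose transcripts are spliced into isoforms with different numbers of repeats, deviations ran from -0.31 (4976719) to 0.30 (4326542). Probe set 4326542 of Mapt was at 9.21, 8.96, 9.34 and 9.04 in knockout 1 to 4, against 8.55, 9.09, 9.09 and 8.83 in wild type 1 to 4. These groups overlapped. In Map2 all 36 deviations were within 0.3 of 0, from -0.21 (5580829) to 0.21 (5209821), and 28 of 36 probe sets were below wild type. The 2 Map2 probe sets without overlap, both lower, differed by -0.20 (4730067) and -0.18 (5463562). Map1b deviations ran from -0.19 (4664280) to 0.24 (5040788), none with groups that separated.

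Among the 6 genes, Map4 and Map1a were the most alike across arrays (Pearson r = 0.92 over 8 arrays). Map2 and Mapt ran against each other (r = -0.65). Over all genes tested, the profiles most like that of Map4 were Penk, the enkephalin precursor (r = 0.98, log2 fold change -0.47), and Cd200, a surface glycoprotein of neurons (r = 0.98, log2 fold change -0.19). Those most like Map1a were Tmem200a (r = 0.99) and Cntn1, a contactin adhesion protein (r = 0.98). For Map2 they were G3bp2 and Sos2, both at 0.97, and for Mapt the RNA-binding protein gene Celf3 (0.97) and C1ql1 (0.97). For Map1b they were Map4k4 and 4933407K13Rik, both at 0.93, and for Map7 Smim14 and Fam184b, both at 0.96. These r values describe 8 shared arrays and were picked as the highest of 12960 genes. Group means were not removed, so the difference between knockout and wild type enters every r given here, that of Map4 and Map1a included.

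Markers of another brain region shared part of the array pattern of Map4 and Map1a. Of 7 striatal markers, 5 could be tested and all 5 were below wild type, Penk and Tac1 among them. Their mean was 8.61, 8.52, 8.29 and 8.71 in knockout 1 to 4, against 9.17, 8.86, 8.91 and 9.03 in wild type 1 to 4. As with Map4 and Map1a, the groups did not overlap, knockout 3 was lowest and wild type 1 highest. Knockout 3 was also lowest and wild type 1 highest for pan-neuronal, astrocyte and interneuron markers, whose groups overlapped. Among wild type arrays the striatal mean was lowest in wild type 2, Map4 in wild type 3 and Map1a in wild type 4. Penk, 1 of the 5, had been picked above as most like Map4, and the difference between the groups enters any such likeness. Of 8 pan-neuronal markers, 7 could be tested, 4 below and 3 above wild type, with means of 10.54 to 10.67 in knockout and 10.61 to 11.01 in wild type arrays. Snap25, a SNARE protein of vesicle fusion, was the 1 marker called (log2 fold change -0.84, limma adjusted p = 0.0048). Of the radial glia and progenitor markers, 3 of 8 were below wild type, with means of 9.68 to 9.78 in knockout and 9.58 to 9.81 in wild type arrays. Choroid plexus markers were below wild type in 6 of 6, with means of 7.37 to 9.03 in knockout, knockout 2 being lowest, and 8.83 to 8.94 in wild type arrays. Astrocyte markers, with 4 of 5 below wild type, averaged 8.41 to 8.72 in knockout and 8.61 to 8.86 in wild type arrays, and interneuron markers, with 5 of 6 below, 9.51 to 9.85 in knockout and 9.77 to 9.95 in wild type arrays. Oligodendrocyte lineage markers, with 5 of 5 below, averaged 8.21 to 8.37 in knockout and 8.31 to 8.61 in wild type arrays. Vascular markers were above wild type in 5 of 5, and microglial markers in both that could be tested. The part of tissue composition in the differences of Map4 and Map1a was not tested. In bulk tissue, fewer cells of a type and less RNA per cell cannot be told apart.

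Other microtubule genes were read from the same fits, in lists by role that were chosen with earlier results of these data known. Of 94 genes, 88 could be tested, 53 below and 35 above wild type, with a median log2 fold change of -0.018. The groups did not overlap for 3 of the 88, all with knockout lower, where 1.97% of all genes were lower without overlap. No gene of the 6 lists was called by limma at gene level, where 0.116% of all genes were, and 5 of the 88 had an unadjusted p under 0.05, as did 841 of all 12960 genes.

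Tubulins, the building blocks of microtubules, were below wild type in 8 of 12. Tuba4a, an alpha-tubulin, was at 8.93, 8.99, 8.89 and 8.91 in knockout 1 to 4, against 9.74, 9.34, 9.11 and 9.37 in wild type 1 to 4. The groups did not overlap, and wild type 1 was again the highest array (log2 fold change -0.46, SE 0.12, limma adjusted p = 0.28, or -0.26 with no signal filter). Tubb6, a beta-tubulin, had a log2 fold change of 0.17 (SE 0.17) that turned to -0.039 without wild type 3. The neuronal beta-tubulin Tubb3 averaged 12.94 in knockout and 12.90 in wild type cortex.

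Of other structural microtubule-associated proteins, 8 of 14 were below wild type. The smallest unadjusted p belonged to Map7d3 and Map1s, relatives of Map7 and of the MAP1 family. Map7d3 had a log2 fold change of -0.23 (SE 0.11, limma adjusted p = 0.77), which was 0.22 with no signal filter. Of its 21 probe sets 4 were retained, the fewest a tested gene could have. Map1s was at 0.18 (SE 0.098, limma adjusted p = 0.83), or 0.081 with the filter at the 75th percentile. Among plus-end and crosslinking proteins 14 of 17 were below wild type, with Macf1, the microtubule-actin crosslinking factor, at -0.30 (SE 0.10, limma adjusted p = 0.59). Mapre3, an end-binding protein, was at -0.15 (SE 0.088, limma adjusted p = 0.83), or -0.060 with no signal filter.

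Minus-end, destabilising and severing proteins were below wild type in 4 of 12. In this list Kif2a, a depolymerising kinesin, was at -0.15 (SE 0.11), which was -0.090 without wild type 3, -0.095 without knockout 3, -0.086 with no filter and -0.032 with array weights. Stmn1, stathmin, was at -0.096 (SE 0.093), which was 0.053 when its probe sets were averaged. Tubulin-modifying enzymes were below wild type in 6 of 15, with the acetyltransferase Atat1 at -0.25 (SE 0.10), or -0.16 when its probe sets were averaged and -0.078 under the stricter filter (75th percentile). The tyrosine ligase Ttl was at 0.085 (SE 0.11) and ranged from 0.023 to 0.16 over the 16 alternative fits, with 0.024 without knockout 3. Kinases and phosphatase subunits that act on these proteins were below wild type in 13 of 18. Camk2a, a calcium-dependent kinase subunit, was at 9.46, 9.34, 9.15 and 9.30 in knockout 1 to 4, against 9.89, 9.71, 9.62 and 9.65 in wild type 1 to 4. Its groups did not overlap (log2 fold change -0.40, SE 0.099, limma adjusted p = 0.23). Cdk5r2, an activator of Cdk5, was at -0.23 (SE 0.099, limma adjusted p = 0.75).

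**Figure D4:**
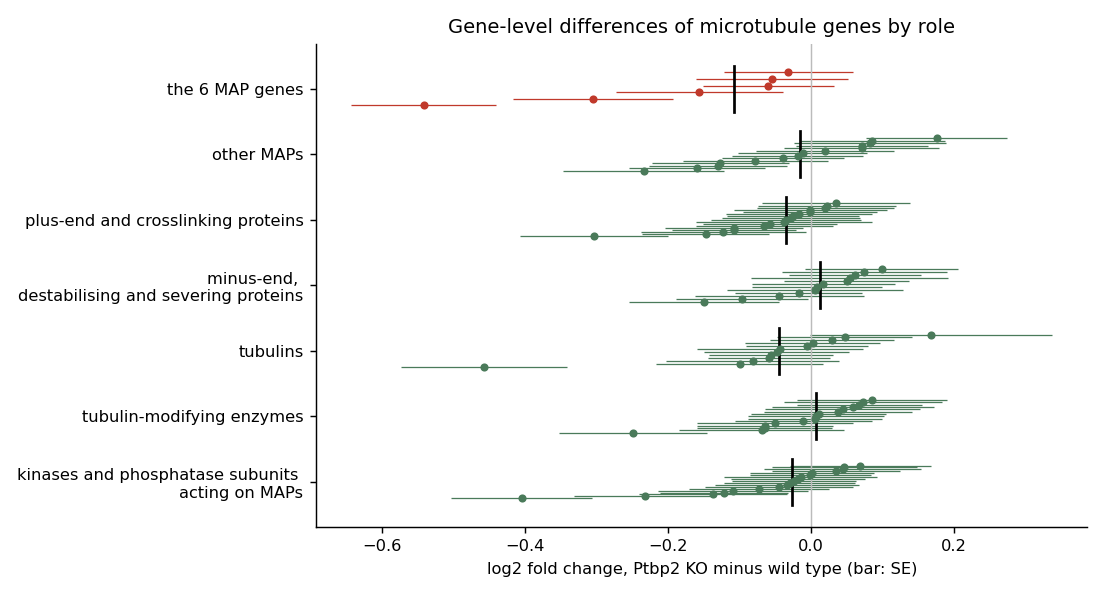
Gene-level log2 fold change (Ptbp2 KO minus wild type) with its SE for the 6 microtubule-associated protein genes (top, red) and for the 88 tested genes of 6 role lists (green), 1 point per gene; black lines mark list medians. Map4 at -0.54 has the lowest value drawn, followed by Tuba4a at -0.46 and Camk2a at -0.40.

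In usage, 8 of the 1987 retained probe sets of these lists were called by diffSplice (0.403%), in 7 genes, 2 raised and 6 lowered. Of all probe sets, 0.212% were called, 0.0879% raised and 0.124% lowered. None was called by the splicing index, and for 4 of the 8 the signals of the groups overlapped. In Map7d1, a relative of Map7, probe set 5520284 was lowered (deviation -0.72, limma adjusted p = 0.0019). Its signal was 7.43, 7.04, 7.63 and 6.998 in knockout 1 to 4, against 7.97, 8.18, 7.82 and 7.98 in wild type 1 to 4. This separation held its call in all 8 fits with 1 array left out, as no other of the 8 did. Clasp1, a plus-end protein that stabilises microtubules, held the 2 raised probe sets, 5017030 (deviation 0.65, limma adjusted p = 0.002) and 5483516 (0.57, limma adjusted p = 0.016). Clasp1 probe set 5017030 was at 7.81, 7.36, 7.55 and 7.46 in knockout 1 to 4, against 6.86, 7.10, 6.88 and 6.83 in wild type 1 to 4. Both Clasp1 probe sets separated the groups, and 5017030 lost its call without knockout 1. The second, 5483516, lost it without knockout 1, knockout 3 or wild type 1.

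The others were lowered and had wide spreads. Nav3, a neuron navigator protein, held 5061240 (deviation -0.76, limma adjusted p = 0.004), and Atat1 held 4907081 (-0.76, limma adjusted p = 0.012). Signals of 4907081 were 6.44, 6.63, 5.93 and 7.03 in knockout 1 to 4. In wild type 1 to 4 they were 7.34, 7.15, 7.28 and 7.80. Its knockout mean of 6.51 lay under the signal filter, which the probe set passed on its mean over all arrays. The lowered use of 4907081 therefore rests on knockout signals largely in the range the filter leaves out. The call of Nav3 was lost without knockout 3 or wild type 1, and that of Atat1 without knockout 1, knockout 3 or wild type 4. Dclk1, a doublecortin-like kinase, held 4462655 (-0.71, limma adjusted p = 0.01), Camk2a held 5407055 (-0.70, limma adjusted p = 0.0074) and Mark1, a kinase of tau and its relatives, held 4780185 (-0.67, limma adjusted p = 0.026). Each of these 3 was lowest in knockout 3, at 6.95, 6.30 and 6.91, and lost its call without that array and without wild type 1. Dclk1 and Mark1 also lost it without knockout 1, Camk2a and Mark1 without wild type 3, Mark1 without wild type 4, and Camk2a with no signal filter.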

How the data were processed

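RNA from 4 Ptbp2 KO and 4 wild type cortices was measured on Affymetrix exon arrays after Trizol extraction and sense target labelling, per the labels' protocols. The deposited log2 signals per probe set involved Affymetrix Expression Console, RMA and mm9, per the submitters' processing notes; their versions and roles were not stated there. RMA equalises distributions between arrays and compresses low signals. Of 625534 probe sets, 303629 had 1 gene symbol, 5892 several and 316013 none; 3919 of 21634 symbols were updated through synonyms of the RefSeq table of GRCm38.p6. The filter, gene value and tests were as given above, with lmFit, eBayes and diffSplice of limma 3.58.1 in R 4.3.3, no covariate, and Benjamini-Hochberg adjustment at 0.05 over all features (without Ptbp2 for usage). Fits were run on simulated arrays with independent noise for each probe set. Noise shared by the probe sets of a gene was not simulated. The design calls the arrays biological replicates. The members and lists were chosen with earlier results of these data known. Named are all 6 genes, each gene's most raised and lowered probe set, every called probe set, list genes called in any fit or among the 2 smallest p of their list, and the 2 most alike genes; Tubb3, Penk, Tac1 and Snap25 and the Map2 probe sets without overlap were named after their values were seen. The alternatives left out each array in turn or used the replicate block, 2 other filters, quantile and cyclic loess normalization, trend with robust, array weights, and the mean as gene value.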

Additional observations from a re-analysis of the deposited data

Results flagged for a closer look

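Among 82 groups of 4 arrays examined, 6 held 1 array far from the other 3, where chance flags about 1 in 20 groups. Wild type 1 was highest for Map4, at 11.04 against 10.76 to 10.80 in the other wild type arrays. The same array was highest for Map1a, at 9.47 against 9.02 to 9.09. Wild type 3 was highest for Map1b, at 12.35 against 12.16 to 12.19, lowest for Tubb6, at 7.90 against 8.67 to 8.76, and lowest for Map7 probe set 5539280, at 6.80 against 7.74 to 7.86. Wild type 2 was highest for Map1s, at 9.27 against 9.06 to 9.09.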

How the results depend on the processing

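With 1 array left out, the Map4 log2 fold change lay between -0.57 and -0.47, that of Map2 between -0.10 and -0.024, Mapt -0.13 and 0.012, Map1a -0.35 and -0.20, Map1b -0.070 and 0.011, and Map7 -0.24 and -0.068. The same fits called 7 to 15 genes, 132 to 285 probe sets, 159 to 856 probe sets in usage and 6 to 12 by the splicing index. Of the 6 genes' probe sets they called 0 to 1 in level, 4 to 7 in usage and 1 by the splicing index, and 0 of the genes. With no filter, 7 genes, 152 probe sets, 889 in usage, 7 by the splicing index and 0 of the 6 genes' probe sets in level were called, with Map1a at -0.069 and Map1b at 0.077. With the filter at the 75th percentile the counts were 25, 139 in usage, 11 by the splicing index and 7 in level of the 6 genes, with Map4 at -0.36 and Map7 left with too few probe sets. Quantile normalization called 24 genes. Array weights called 39 genes, 670 probe sets, 1246 in usage and 34 by the splicing index, with 7 and 3 of the 6 genes' probe sets in level and splicing index. Trend with robust called 461 probe sets and 31 by the splicing index, with 7 and 4 of the 6 genes'. The mean as gene value called 37 genes and 33 by the splicing index, 2 of them in Map4, with Map4 at -0.30. Map4 was the 1 member called at gene level under quantile and cyclic loess normalization, trend with robust, array weights and the replicate block. With the replicate number as a block, 187 probe sets and 0 by the splicing index were called, and 0 of the 6 genes' probe sets in either, though the labels state no pairing and the deviations of same-numbered arrays correlated at 0.25, -0.0039, 0.033 and 0.17. The microtubule lists had 0 genes called in every setting run, and 2 to 22 usage calls. The causes were not tested.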
